A study of Capra hircus with 2 samples.

Results

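The miR-192, miR-194 and miR-215 miRNAs were measured in small RNA from the mammary gland of dairy goats (Capra hircus). Their tags were chosen by sequence: tags of 18 nt or more were counted when they matched the first 18 bases of the mature 5p arm exactly, with the first 1 or 2 of those bases allowed to be missing, and ran at most 3 nt past its end. These 3 members held 11546 of the 25417448 clean tags of the series, 8811 in early lactation and 2735 in early involution. The early lactation library was a pool of RNA from 5 goats on day 10 after parturition. The early involution library was a pool of RNA from 5 goats that had been weaned by force in late lactation, taken 5 days after weaning and 218 days after parturition. Each stage thus had 1 library and no replicate, so no test between stages was possible and no p-value is given. Time since parturition and weaning cannot be told apart. Intervals are 95% intervals for counting error alone. PCR copies carried no molecular identifiers and were counted as separate tags, so the intervals may be too narrow even for that.

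Animal miRNAs guide repression of mRNAs mainly through the seed, bases 2 to 8 of the mature strand. The genes of miR-192, miR-194 and miR-215 lie in small clusters in mammals and are best known from liver, intestine and kidney epithelium, where HNF1 and HNF4 factors drive them. All of them are also induced by p53 and restrain the cell cycle in several tumour cell lines. In the goat RefSeq table (assembly ARS1.2), all 3 genes were listed, and MIR215 and MIR194 were 196 bases apart within the span of IARS2, a mitochondrial isoleucyl-tRNA synthetase gene. MIR192 was on another chromosome, with 0 other listed miRNA genes within 10 kb.

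The mature sequences below were read from the goat tags themselves, as DNA letters from 5′ to 3′, and are shown because miR-192 and miR-215 can be confused. Capitals mark the seed.
miR-192: cTGACCTAtgaattgacagcc
miR-215: aTGACCTAtgaattgacagac
miR-194: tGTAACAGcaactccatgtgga
Counted from 1 at the 5′ end, miR-192 and miR-215 differed by C1A and C20A and had the same seed, whereas miR-194 had a seed of its own. The first base therefore separated miR-192 from miR-215 in full tags, and base 20 could be read as a second sign. Among lactation tags of 20 to 24 nt with bases 2 to 18 of this pair, 142 of the 143 that began with A also had A at base 20, as did 28 of 29 in involution. Among those that began with C, 6213 of 6239 in lactation and 1835 of 1841 in involution had C at base 20. Tags that began with A were thus a distinct sequence at both positions and not miR-192 tags with a changed first base alone. Tags without the first base were assigned by base 20, which left 3 tags in lactation and 1 in involution that could not be placed.

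The most abundant member in both stages was miR-192, followed by miR-194 and, far below, miR-215. Levels are given in TPM, which here stands for tags per 1000000 clean tags. The level of miR-192 was 437.8 TPM in lactation (7894 tags, 428 to 448) and 303 in involution (2236 tags, 290.3 to 316). That of miR-194 was 42.6 TPM in lactation (769 tags, 39.7 to 45.8) and 63.4 in involution (468 tags, 57.8 to 69.4). The level of miR-215 was 8.21 TPM in lactation (148 tags, 6.94 to 9.64) and 4.20 in involution (31 tags, 2.85 to 5.96). The counting intervals of the stages did not overlap for any of the 3 members. How often this holds for other tags of similar size was not counted, so it does not set the members apart. No interval of one member overlapped that of another within a library. These intervals leave out the spread between goats and between library preparations, which is unknown here. In whole tissue, fewer cells of a type and less RNA per cell cannot be told apart.

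**Figure D1:**
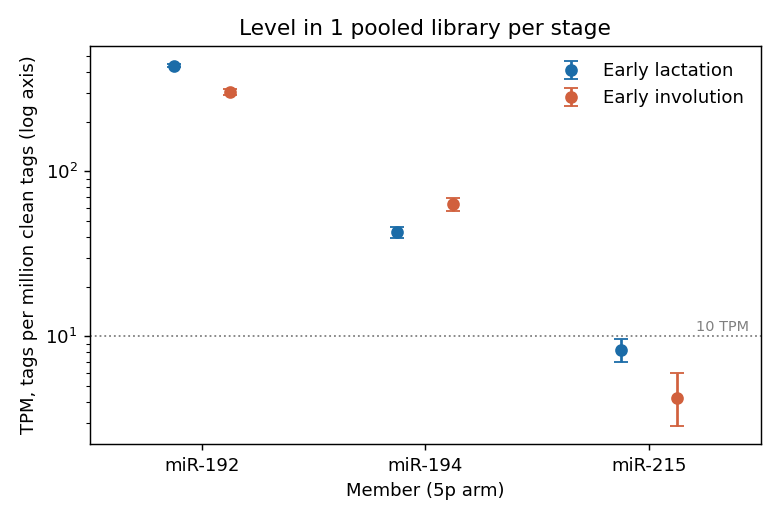
Level of each member (x axis) in TPM (log y axis); points are the early lactation and the early involution library, 1 pooled library each, and bars are exact Poisson 95% intervals. The points for miR-192 and miR-215 lie lower in involution, that for miR-194 lies higher, and miR-215 stays under 10 TPM in both.

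Across the stages miR-194 went the opposite way from the other two. In involution miR-192 stood at 0.692 times its lactation level (0.6595 to 0.725) and miR-215, which has its seed, at 0.511 times (0.335 to 0.757). In contrast, miR-194 stood at 1.49 times (1.32 to 1.67). Neither miR-192 nor miR-194, the 2 members that reached 10 TPM, differed by 2-fold or more. As a background, all tags of similar size were grouped by their first 18 bases. Of 803 such groups that reached 10 TPM in a library, 39.6% were at least 2-fold higher in involution and 3.74% at least 2-fold lower, or 43.3% in either direction. As 568 groups reached 10 TPM in lactation and 772 in involution, more of them entered through involution alone. That lifts both the share called higher and the median. The median log2 ratio of the groups was 0.63, with quartiles at -0.04 and 1.77. Against these, the log2 ratio of 0.57 for miR-194 was near the middle, with 386 of the 803 groups lower. The log2 ratio of -0.53 for miR-192 was toward the low side, with 95 groups lower, and that of -0.97 for miR-215 had 37 groups lower. As miR-215 reached 10 TPM in neither library, it was not itself among the groups.

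The size of the ratios and, for miR-194, whether the ratio stood above 1 depended on how the libraries were scaled. Median-of-ratios and TMM factors moved every log2 ratio by -0.67 and -0.65. With them the ratio of miR-194 was 0.935 (0.831 to 1.05) and 0.947 (0.842 to 1.06), on the other side of 1 but with intervals that span 1. Under the same factors miR-192 stood at 0.435 and 0.441, over 2-fold lower, and miR-215 at 0.322 and 0.326. The order of the 3 ratios does not depend on scaling. Under these factors the tag groups were called 211 higher (26.3%) and 129 lower (16.1%) by median-of-ratios, and 214 higher (26.7%) and 127 lower (15.8%) by TMM, against 318 and 30 by clean tags. The lactation library was 2.44 times deeper. With it thinned to the involution total the ratios were 0.697 for miR-192, 1.59 for miR-194 and 0.492 for miR-215. Reads removed as 5′ adaptor contaminants were 0.0505% of high-quality reads in lactation against 14.03% in involution, and their part in the ratios was not tested.

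**Figure D2:**
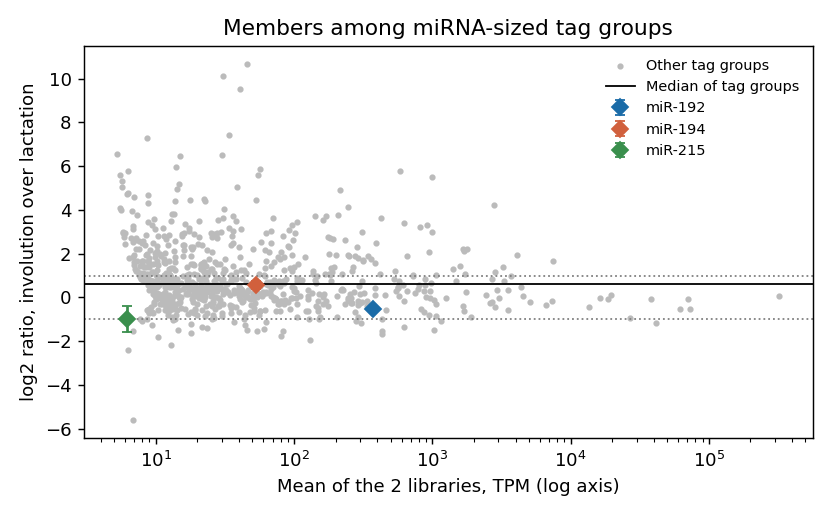
Each grey point is a tag group that reached 10 TPM in a library, placed by its mean level over the 2 libraries (log x axis, TPM) and its log2 ratio of involution over lactation (y axis); diamonds are the members with 95% counting intervals, dotted lines mark 2-fold and the black line the median of the groups. The diamond for miR-194 lies close to the median line at 0.57, whereas those for miR-192 at -0.53 and miR-215 at -0.97 lie below it.

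By rank, miR-192 was number 78 among the tag groups in lactation and number 120 in involution. In lactation the next group above stood at 455.98 TPM, outside the interval of miR-192, and the next below at 435.8, inside it. In involution both, at 308.02 and 302.1, lay inside its interval. The rank of miR-194 was 273 in lactation and 283 in involution. These neighbours are not named, since no table used here pairs sequences with miRNA names.

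The balance within the group is free of the scaling between libraries. For each 100 tags of miR-192 there were 9.74 of miR-194 in lactation (9.03 to 10.5) and 20.9 in involution (18.9 to 23.1), so the proportion was 2.15 times higher in involution (1.89 to 2.44). Under the alternative ways of assigning tags this factor lay between 1.99 and 2.16. The share of miR-194 among the tags of the 3 members was 8.73% in lactation (8.15 to 9.34%) and 17.1% in involution (15.7 to 18.6%). Shifts of this size were common between unrelated sequences of these libraries: 56.4% of all pairs of the 803 tag groups had ratios at least as far apart. Groups that reached 10 TPM in a single library are part of these pairs.

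The 5p tags of miR-194 do not show which copy of its gene they came from, so their proportion to miR-215 is not that of a single cluster. For each 100 tags of miR-194 there were 19.2 of miR-215 in lactation (16.03 to 22.98) and 6.62 in involution (4.45 to 9.53), 2.91-fold lower (1.92 to 4.50). The proportion of miR-215 to miR-192, which have the same seed, was 1.87 per 100 in lactation (1.58 to 2.21) and 1.39 in involution (0.940 to 1.97). The change of that proportion was not detectable at this depth, at 0.739 times with an interval of 0.484 to 1.10.

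The passenger strands were rare. A tag was counted for a 3p arm when it carried the seed known for that arm in mammals and, past base 8, a run of at least 7 bases complementary to the 5p arm. The 3p arm of miR-194 had 25 tags in lactation and 13 in involution, which equals 1.39 TPM (0.897 to 2.05) and 1.76 TPM (0.937 to 3.01). Its share of the tags of both arms was 3.15% in lactation (2.05 to 4.61%) and 2.70% in involution (1.45 to 4.58%), a difference within counting error. The leading 3p tags of the stages differed by 1 end base, and their seed is that of the 3p arm of the human miR-194 copy beside miR-192.
miR-194-3p, leading tag in lactation: cCAGTGGGgctgctgttatctg
miR-194-3p, leading tag in involution: cCAGTGGGgctgctgttatctga
The first of them had 13 lactation tags and the second 9 involution tags. The 3p seed of the human miR-194 copy beside miR-215 had 0 such tags in either library. Read as up to 3 tags, this allows 0.166 TPM in lactation and 0.406 in involution. The exact Poisson intervals reach 0.205 and 0.499 TPM. The 3p arm of miR-192 had 0 tags in lactation and 1 in involution, or 0.135 TPM (0.00343 to 0.754). That of miR-215 had 0 tags in both. The same limits hold for these counts of 0.

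Many miR-192 tags lacked the first base. A tag that lacks the first base has a seed shifted by a base. Of the miR-192 tags, 20.4% began at base 2 in lactation (19.5 to 21.3%) and 16.6% in involution (15.1 to 18.2%). For miR-194 the share was 0.130% in lactation (1 of 769 tags) and 0.641% in involution (3 of 468), and for miR-215 it was 2.70% (4 of 148 tags, 0.741 to 6.78%) and 6.45% (2 of 31 tags, 0.791 to 21.4%). The miR-192 share thus lay above the miR-215 interval in lactation and within it in involution. A high share was not particular to miR-192: among 205 tag groups with at least 400 tags at the first base in each library, the median share that lacked 1 or 2 bases was 2.14% in lactation and 2.46% in involution, but 75 and 77 groups exceeded miR-192.

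The start of a miR-192 tag went together with its end, as the commonest forms show. Capitals mark bases 2 to 8 of each tag, so that the shift of the seed can be seen.
start 1, end 20: cTGACCTAtgaattgacagc
start 1, end 21: cTGACCTAtgaattgacagcc
start 1, end 22: cTGACCTAtgaattgacagcca
start 2, end 20: tGACCTATgaattgacagc
start 2, end 22: tGACCTATgaattgacagcca
start 2, end 23: tGACCTATgaattgacagccag
start 2, end 24, last base A: tGACCTATgaattgacagccaga
start 2, end 24, last base T: tGACCTATgaattgacagccagt
The first of these, 1 base shorter than the mature sequence, was the most abundant miR-192 tag, with 3173 tags in lactation (40.2% of miR-192) and 915 in involution (40.9%). The mature form, with end 21, was next with 1653 tags (20.9%) and 570 (25.5%). Among tags that began at base 1, the share ending at base 23 or later was 1.58% in lactation (1.28 to 1.91%), and in involution it was 3.27% (2.51 to 4.19%). Among tags that began at base 2 it was 44.5% (42.04 to 46.96%) and 55.1% (49.9 to 60.2%). The shifted tags therefore extended further at the 3′ end in both libraries. The mean last base was 20.7 for tags with start 1 in both libraries, and for tags with start 2 it was 22.2 in lactation and 22.3 in involution.

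The extra bases differed by start as well. Of the base-2 tags that reached position 23, 92.3% had G there in lactation (660 of 715 tags, 90.1 to 94.2%) and 93.2% in involution (191 of 205 tags, 88.8 to 96.2%). Of the base-1 tags that reached it, 27.3% had G in lactation (27 of 99 tags, 18.8 to 37.1%) and 27.9% in involution (17 of 61 tags, 17.1 to 40.8%). The commonest base there was T, at 61.6% (61 of 99) and 62.3% (38 of 61). At position 24 the base-2 tags were split between A, at 50.5% in lactation and 50.9% in involution, and T, at 45.7% and 45.4%. For each of these shares at positions 23 and 24 the intervals of the stages overlapped. At position 22 the base-1 tags had A at 97.5% in lactation (96.6 to 98.3%) and 92.6% in involution (89.2 to 95.2%), without overlap. The base-2 tags had A there at 99.8% (99.4 to 99.98%) and 100% (98.6 to 100%). No precursor sequence was used here, so bases copied from the precursor were not separated from bases added afterwards.

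**Figure D3:**
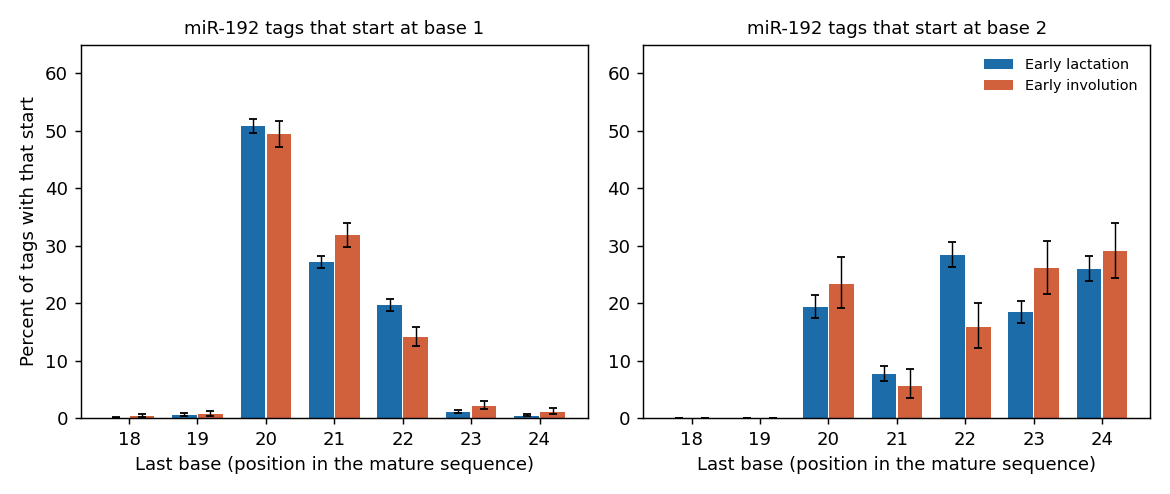
Percent of miR-192 tags (y axis) by the position of their last base in the mature sequence (x axis), for tags that start at base 1 (left) and at base 2 (right); bars are the 2 libraries and error bars 95% Clopper-Pearson intervals. Base 20 leads on the left with 50.8% in lactation and 49.5% in involution. On the right the tags are spread over bases 20 to 24, the last end counted.

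Between the stages miR-192 kept base 20 as its leading end at start 1, and ends at base 22 had a smaller share in involution at both starts. At start 1, ends at base 20 took 50.8% in lactation (49.6 to 52.1%) and 49.5% in involution (47.2 to 51.8%). Ends at base 21 went from 27.2% (26.1 to 28.3%) to 31.9% (29.8 to 34.1%), and ends at base 22 from 19.7% (18.7 to 20.7%) to 14.2% (12.6 to 15.8%). At start 2, ends at base 22 went from 28.4% (26.2 to 30.7%) to 15.9% (12.3 to 19.98%), and ends at base 23 from 18.5% (16.6 to 20.5%) to 26.1% (21.7 to 30.9%). For ends at base 24 at start 2 the intervals of the stages overlapped. At start 1 the rare long ends had a larger share in involution. Ends at base 23 went from 1.11% (0.869 to 1.41%) to 2.15% (1.54 to 2.91%). Ends at base 24 went from 0.461% (0.309 to 0.662%) to 1.13% (0.699 to 1.72%).

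In miR-194 the 3′ end lay further out in involution. The 22-nt mature form had 353 tags in lactation (45.9% of miR-194, 42.3 to 49.5%) and 242 in involution (51.7%, 47.1 to 56.3%). The form shorter by 1 base, tGTAACAGcaactccatgtgg, had 318 tags in lactation (41.4%, 37.8 to 44.9%) and 106 in involution (22.6%, 18.9 to 26.7%). The form longer by 1 A, tGTAACAGcaactccatgtggaa, had 75 tags (9.75%, 7.75 to 12.1%) and 91 (19.4%, 16.0 to 23.3%). A further A, tGTAACAGcaactccatgtggaaa, gave 3 tags in lactation (0.390%, 0.0805 to 1.14%) and 15 in involution (3.21%, 1.80 to 5.23%). Tags beyond 22 nt together had 11.6% (9.41 to 14.1%) of those at the first base in lactation and 24.1% (20.3 to 28.2%) in involution. The forms differed in ratio between the stages. The short form had 17.6 TPM in lactation and 14.4 in involution, and the form longer by 1 A had 4.16 and 12.3. The mean tag at the first base was 0.341 nt longer in involution. Over the 205 tag groups the median of that difference was -0.012 nt, with quartiles at -0.127 and 0.153, and 27 groups exceeded miR-194.

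The commonest miR-215 tag was longer by 1 A than the conserved mature form, as aTGACCTAtgaattgacagaca, with 72 of 148 tags in lactation (48.6%, 40.4 to 57.0%) and 15 of 31 in involution (48.4%, 30.2 to 66.9%). Any change in its ends was not detectable with 31 tags.

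**Figure D4:**
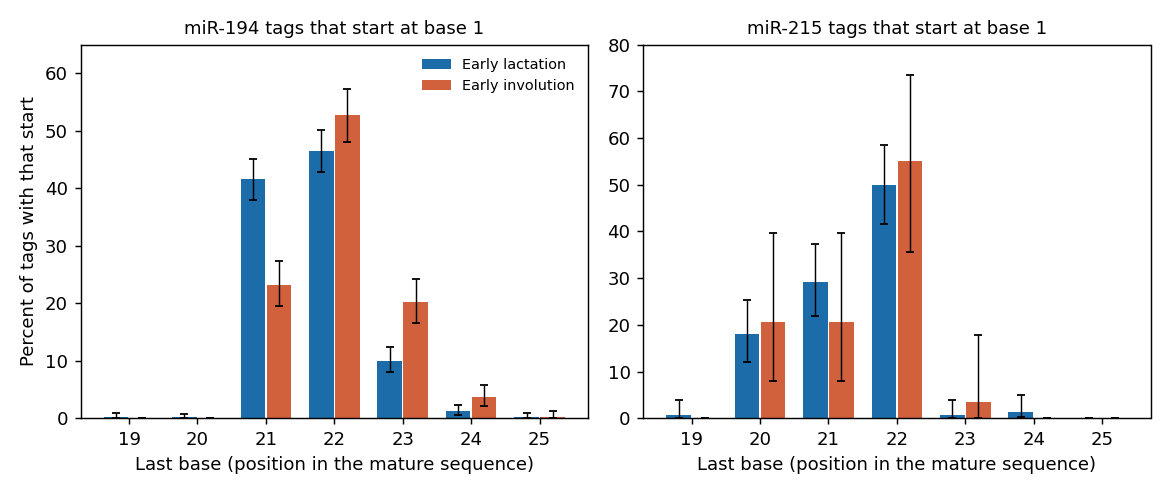
Percent of tags that start at base 1 (y axis) by the position of their last base (x axis) for miR-194 (left) and miR-215 (right, with its own y scale) in both libraries; error bars are 95% Clopper-Pearson intervals. Ends of miR-194 at base 21 had 41.5% in lactation and 23.2% in involution, those at base 23 had 10.03% and 20.2%, and the intervals of miR-215 overlap throughout.

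Of departures inside the first 18 bases, single mismatches after base 8 alone were counted. Their shares are of tags that began at base 1, with the mismatched ones included. Such tags made up 1.05% of miR-192 in lactation (67 tags) and 0.693% in involution (13 tags), and 2.66% (21 tags) and 1.06% (5 tags) of miR-194. The commonest were C17A in miR-192 (17 tags in lactation), A11C in miR-192 (13 and 10 tags) and C15T in miR-194 (9 tags in lactation). Joined tags, in which a member was fused to other bases in a tag of 31 to 44 nt, numbered 17 for miR-192 in lactation and 1 in involution, which equals 0.943 and 0.135 TPM.

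Markers of the tissues for which these miRNAs are known differed among themselves in level and in ratio between the libraries. The liver miRNA miR-122 had 20 tags in lactation and 41 in involution, which equals 1.11 and 5.55 TPM, against 437.8 and 303 for miR-192. Of 7 seeds known from liver, gut and kidney epithelium, those of miR-375 (19.4 times, 18.8 to 20.01), miR-31 (2.03 times, 1.70 to 2.42) and miR-204 (3.53 times, 2.46 to 5.09) were called higher in involution. Those of miR-10a/10b, miR-196 and the miR-30 family stood at 0.669, 0.799 and 0.517 times, short of 2-fold, and miR-122 was under 10 TPM. The 3 of 7 called higher stand beside 39.6% of all tag groups, although miR-122 could not be called and the groups all reached 10 TPM. Of the 3, miR-204 reached 10 TPM in involution alone (2.99 TPM in lactation, 10.6 in involution), so by clean tags it could not be called lower. The median log2 ratio of this list, miR-122 included, was 1.02, beside 0.63. Of 4 seeds in the list of p53-responsive miRNAs, 2 were higher, miR-34a/34c at 3.43 times (2.85 to 4.14) and miR-145 at 9.39 times (9.01 to 9.80). These 2 stand beside the same 39.6%. The list named miR-107. The leading start of its seed, shared with miR-103 and read as miR-103, stood at 0.979 times. As miR-34b was under 10 TPM, it could not be called. The median log2 ratio of all 4 seeds was 0.87. By clean tags, 0 seeds of either list were called lower. With median-of-ratios or TMM factors the liver, gut and kidney list had 2 seeds higher, miR-375 and miR-204, and 2 lower, miR-10a/10b (0.421 and 0.426 times) and the miR-30 family (0.325 and 0.329 times), and miR-31 was no longer called. The p53 list kept its 2 higher calls, miR-34a/34c and miR-145, under both factors. These rescaled counts stand beside 26.3% of all tag groups higher and 16.1% lower by median-of-ratios. By TMM the shares were 26.7% and 15.8%.

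Markers of other cell types were read in the same way, against the 39.6% of all tag groups called higher by clean tags. In mammary and other epithelium 3 of 5 seeds were higher, those of miR-141/200a, miR-205 and miR-375, with a range of log2 ratios from -0.75 to 4.28 and a summed level of 17575 TPM in lactation and 22039 in involution. The leukocyte list had 5 of 6 seeds higher, with log2 ratios from -0.79 to 3.46 and summed levels of 1405 and 1515 TPM. The seed that was not higher, miR-155, made up most of the lactation sum, with 1202 TPM against 695 in involution. The erythroid list had 2 of 3 higher, miR-451 and miR-144, with summed levels of 926 and 3064 TPM. Of these, miR-144 reached 10 TPM in involution alone (2.27 TPM in lactation, 74.2 in involution). The other seed of the list, miR-486, went the other way at 0.839 times (0.798 to 0.883), short of 2-fold. The stromal list had 2 of 4 higher, miR-145 and miR-214, with log2 ratios from 0.05 to 3.31 and sums of 318121 and 331155, nearly all miR-143. Neither the endothelial miR-126-3p, at 0.717 times, nor the muscle seed of miR-1, at 0.775 times, was called, and the muscle miRNA miR-133a stayed under 10 TPM. Under either factor the seeds called higher were 2 of 5 in epithelium, 3 of 6 in the leukocyte list, 2 of 3 in the erythroid list and 2 of 4 in the stromal list. Of all tag groups, 26.3% by median-of-ratios and 26.7% by TMM were called higher. The seeds called lower, against 0 by clean tags, were the shared seed of miR-200b and miR-200c, miR-203, miR-155, miR-126-3p and miR-1. Among these, miR-203 reached 10 TPM in lactation alone (14.6 TPM in lactation, 8.67 in involution). Lower calls made up 16.1% of all tag groups by median-of-ratios and 15.8% by TMM. The part of such cell types in the levels of miR-192, miR-194 and miR-215 was not tested.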

How the data were processed

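Small RNA of mammary gland was sequenced in 2 pooled libraries. The deposited files list each distinct tag with its raw count. Per the deposited description, the 3′ adaptor was trimmed, and reads of low quality, polyA tags, contaminants from the 5′ adaptor and anything under 18 nt were dropped. For tools and versions, nothing was given in the sources used here. The authors' deposited filtering logs were tied to the libraries by their counts of clean reads, which equalled the totals. Clean tags numbered 18031615 and 7385833, and 1 tag equals 0.0555 and 0.135 TPM.

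No table of miRNA sequences was used. Each member was located by its first base and 7-base seed, known from mammals, and by its mature length (21 nt for miR-192 and miR-215, 22 nt for miR-194), and the most abundant goat tag with these served as the mature sequence. The background groups share their first 18 bases (or lack up to 2 of them), have at most 25 nt and a commonest length of 20 to 24 nt. Starts under 1% of a group from which they differed by up to 2 mismatches or a shift of up to 4 bases, and starts shifted by 1 or 2 bases, made no group of their own. The groups are not all miRNAs. Markers are the leading 18-base start with the seed of the named miRNA, and where miRNAs share a seed (as miR-1 and miR-206, miR-103 and miR-107) the value is of the leading start. Levels have exact Poisson intervals, shares Clopper-Pearson intervals, ratios conditional Clopper-Pearson intervals and changes of a proportion conditional odds-ratio intervals. A count of 0 was read as up to 3. A group was called at a ratio of at least 2 or at most 0.5 with an interval beyond 1 and at least 10 TPM in a library.

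Members and lists were chosen with earlier results of these data known. The named miRNAs are the members, their 3p arms and the lists. The procedure was checked on simulated counts. Alternatives covered scaling, assignment, tag length and depth. Those on scaling, planned over reference miRNAs, were run over tag groups. Python 3.11.15, numpy 2.4.6, scipy 1.17.1 and R 4.3.3 with edgeR 4.0.16 (TMM factors only) were used.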

Additional observations from a re-analysis of the deposited data

How the results depend on the processing

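With median-of-ratios factors the ratios of involution to lactation were 0.435 for miR-192, 0.935 for miR-194 and 0.322 for miR-215, and with TMM factors 0.441, 0.947 and 0.326. The ratio of miR-194 thus moved below 1 under both, with intervals that span 1 (0.831 to 1.05 and 0.842 to 1.06). By construction these factors set the centre of all tag groups near equality, which lowers every ratio alike. Counting identical tags alone gave 0.842 for miR-192 and 1.67 for miR-194, and moved the proportion of miR-194 to miR-192 to 0.214 in lactation and 0.425 in involution, from 0.0974 and 0.209. Tags at the first base alone gave 0.122 and 0.250. The other alternatives kept these values within their counting intervals: scaling to tags in groups, leaving out the most abundant group, 1 mismatch, base 20 as a second sign, and thinning of the lactation library. A limit of 18 to 30 nt could change nothing, since the rule already kept tags to at most 3 nt past the mature end. The number of tag groups called, 348 (318 higher and 30 lower), became 821 with no minimum level. It was split into 211 higher and 129 lower with median-of-ratios factors and 214 and 127 with TMM factors. The same factors were applied to the marker lists after their values were seen. A match of the whole tag to the precursor was planned and not run. No paired analysis was possible because each stage had 1 library. Depth limits miR-215 and the 3p arms most.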
